A study of Mus musculus with 22 samples.

Results

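The opioid peptide precursors are the 4 genes Penk, Pdyn, Pomc and Pnoc, taken by symbol from a table of 23119 Ensembl genes, and all 4 were present in it. They were described in 22 RNA-seq libraries of bulk striatum, all from male C57BL/6J mice of adult age. The treated animals took the opioid drug oxycodone by self-administration at 0.25 mg/kg per infusion, in sessions of 4 h per day over 14 days, and were set against yoked animals infused with saline on that schedule. The groups were oxycodone dorsal striatum (5 libraries), saline dorsal striatum (5), oxycodone ventral striatum (6) and saline ventral striatum (6). No transgene or mutant allele is named for any group, and the interval between the last session and dissection is not given in the sources used here. Nothing in the labels says that libraries came from separate animals, so p-values measure the spread between these libraries, which may be partly technical. In each dorsal group 2 libraries carry the same title number, 1 of them followed by the letter P, which the labels do not explain, and both were kept as separate libraries.

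Opioid peptides are cut out of larger precursor proteins inside secretory vesicles. Penk encodes proenkephalin, the source of the enkephalins, which act on delta and mu opioid receptors, and in the striatum it is a hallmark transcript of the D2 medium spiny neurons of the indirect pathway. Pdyn encodes prodynorphin, whose dynorphins act on kappa receptors, and it is carried mainly by D1 medium spiny neurons of the direct pathway. Pomc encodes pro-opiomelanocortin, the source of beta-endorphin and of melanocortins, made chiefly in the pituitary and in hypothalamic arcuate neurons. Pnoc encodes prepronociceptin, whose product acts on the nociceptin receptor and which is made by scattered forebrain neurons.

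The coding sequences show what the family shares. Each line below gives 27 bases of the GENCODE M21 transcript around 1 opioid core, 5′ to 3′ on the coding strand, with the 5 codons from the start of the core in capitals and the flanking codons in lower case.
Penk: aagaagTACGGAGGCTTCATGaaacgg
Pdyn: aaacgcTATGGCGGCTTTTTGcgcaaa
Pomc: aagcgtTACGGTGGCTTCATGacctcc
Pnoc: aaaaggTTTGGGGGCTTCACCggggcc
The Penk stretch lies at chr4:4134328-4134354 (minus strand), the Pdyn stretch at chr2:129688232-129688258 (minus strand), the Pomc stretch at chr12:3960367-3960393 (plus strand) and the Pnoc stretch at chr14:65404872-65404898 (minus strand) of GRCm38. In Penk, Pdyn and Pomc the capitals open with the codons for tyrosine, glycine, glycine and phenylalanine, while the Pnoc core opens with a phenylalanine codon in the place of tyrosine. In all 4 lines the bases just before the capitals encode lysine or arginine, the kind of basic pair at which prohormone convertases cut. The core occurs 7 times in the 268 codons of Penk, 6 times followed by a methionine codon and 1 time by a leucine codon. It occurs 3 times in the 248 codons of Pdyn, each time followed by leucine, and 1 time in the 235 codons of Pomc, followed by methionine. Pnoc has 0 copies of it in 187 codons and 1 copy of the phenylalanine form.

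Library totals ran from 13797075 to 17836414 counts in oxycodone dorsal, 11314079 to 21921963 in saline dorsal, 8408829 to 10007992 in oxycodone ventral and 9172185 to 11000345 in saline ventral libraries. Among counts from 1 to 19, between 70.8% and 77.4% were even in a dorsal library and between 41% and 43.6% in a ventral one. The sixth libraries of both ventral groups stood apart. Saline ventral replicate 6 had a mean level of D2 neuron markers of 3.02 log2 CPM (the log of TMM-scaled CPM, in which a count is divided by the scaled library total), against 5.86 to 6.24 in the other saline ventral libraries, and of D1 markers of 2.51 against 5.22 to 5.44. Its cortical glutamatergic markers stood at 6.81 against 3.27 to 4.46. Oxycodone ventral replicate 6 had dorsal striatum markers at 7.08 against 5.76 to 6.04 in the other oxycodone ventral libraries, a level inside the 6.93 to 7.11 of oxycodone dorsal libraries, and choroid plexus markers at 3.89 against 0.48 to 1.2. Values without both are given for each precursor, for each count between regions, and for other named genes where a call changed or the log2 fold change moved by over 1.5 times. Medium spiny neuron markers common to both pathways averaged 8.98 to 9.17 log2 CPM in dorsal libraries and 7.8 to 8.39 in the 10 other ventral ones.

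Penk was by far the most abundant of the 4 precursors and Pnoc the rarest. Penk (ENSMUSG00000045573, GRCm38 chromosome 4, 4133531 to 4138819) ranked between 26 and 71 by count among all genes in every library other than saline ventral replicate 6, where its rank was 3176. Per kilobase of exon, Penk averaged 872 ± 106 CPM in oxycodone dorsal, 885 ± 89.3 in saline dorsal, 737 ± 197 in oxycodone ventral and 566 ± 275 in saline ventral libraries (SD, n = 5, 5, 6 and 6). Pdyn (ENSMUSG00000027400, chromosome 2, 129686565 to 129699844) averaged 24.8 ± 1.29, 24.4 ± 3.58, 26.8 ± 5.7 and 24.4 ± 10.6 CPM per kilobase in oxycodone dorsal, saline dorsal, oxycodone ventral and saline ventral libraries. Pomc (ENSMUSG00000020660, chromosome 12, 3954951 to 3960642) averaged 6.57 ± 2.69 in oxycodone dorsal, 5.38 ± 2.24 in saline dorsal, 4.07 ± 2.69 in oxycodone ventral and 1.99 ± 0.587 in saline ventral libraries. Pnoc (ENSMUSG00000045731, chromosome 14, 65400673 to 65425472) averaged 0.079 ± 0.0547 in oxycodone dorsal, 0.0986 ± 0.117 in saline dorsal, 0.723 ± 0.353 in oxycodone ventral and 1.2 ± 0.422 in saline ventral libraries. The order Penk, Pdyn, Pomc, Pnoc thus held in all 4 group means, and only the neighbours Pomc and Pnoc overlapped in their library ranges, in both ventral groups. The span of an antisense gene, A830012C17Rik, with its introns counted in, holds 342 bases of Penk exon. Since the strand setting of the counting is not given in the sources used here, any reads of that gene in those bases cannot be told from those of Penk.

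**Figure D1:**
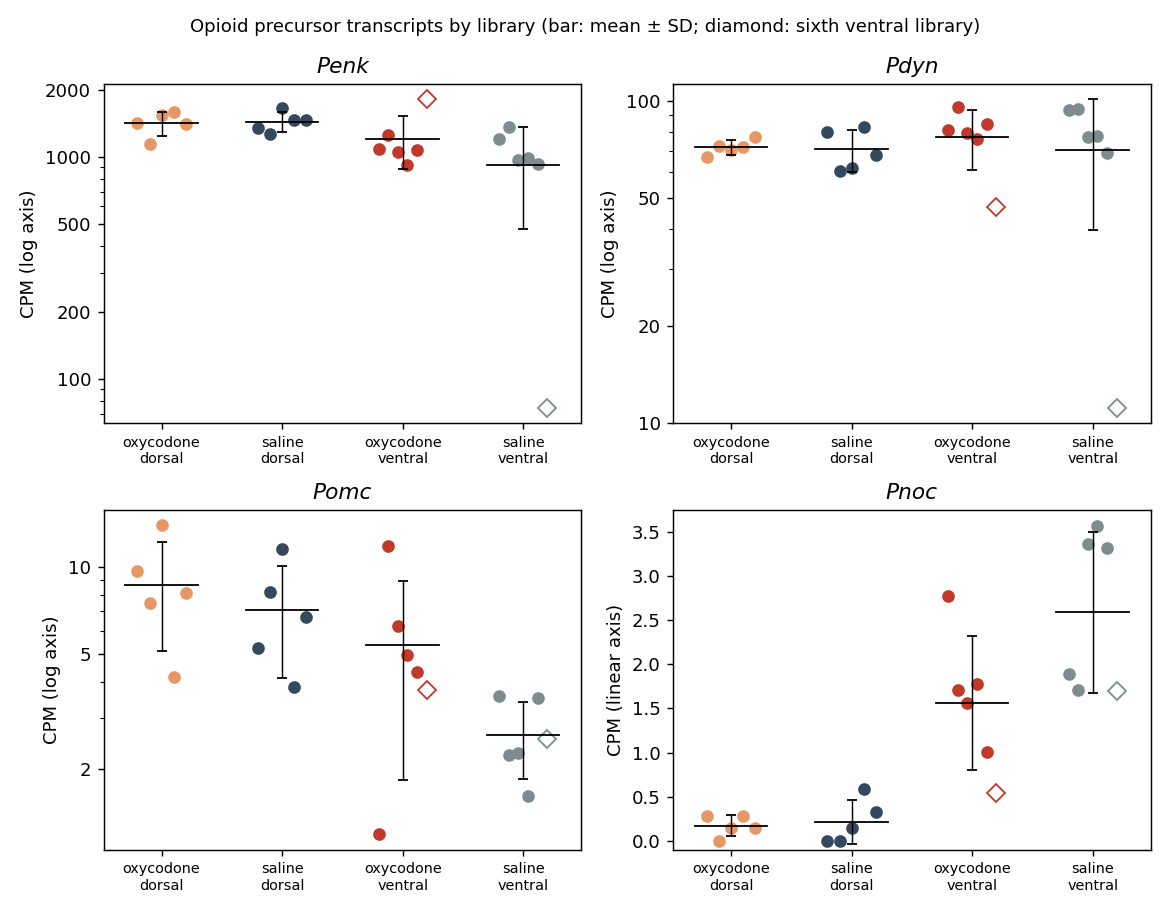
TMM-scaled CPM of Penk, Pdyn, Pomc and Pnoc in each library of the 4 groups (log axis for the first 3 genes, linear for Pnoc); points are libraries, diamonds the sixth ventral libraries, bars the mean ± SD. Penk lies above 900 CPM in all libraries but saline ventral replicate 6, at 74.3 CPM, and Pnoc lies lower in all 10 dorsal libraries than in the ventral libraries of the same treatment.

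In dorsal striatum the comparison of oxycodone with saline asked whether the endogenous opioid precursors differ after 14 days of drug intake, and 0 of the 3 that could be tested were called. In all, 30 of 14595 genes were called at an adjusted p of 0.05 by edgeR, or 0.206%. Penk measured 1424, 1148, 1553, 1590 and 1408 CPM in the oxycodone libraries and 1360, 1273, 1663, 1464 and 1469 CPM in the saline libraries. The 2 sets of values interleave, and the fitted log2 fold change was -0.02 (SE 0.08, adjusted p = 0.998). Pdyn measured 66.9, 72.5, 70.1, 71.9 and 77.1 CPM after oxycodone and 79.8, 60.6, 61.8, 83 and 67.6 CPM after saline. All 5 oxycodone values lie inside the saline range, and the log2 fold change was 0.02 with SE 0.11 and an adjusted p of 0.998. Within the libraries whose titles carry the suffix P, and within those that do not, the log2 fold change was -0.04 and -0.08 for Penk and 0.01 and 0.01 for Pdyn.

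Pomc and Pnoc were far rarer in dorsal striatum. Pomc measured 9.67, 7.47, 13.9, 4.16 and 8.11 CPM in oxycodone libraries and 5.24, 8.18, 11.5, 3.83 and 6.69 CPM in saline libraries, with 1 oxycodone library above all saline ones. Its log2 fold change was 0.29 with SE 0.32 and an adjusted p of 0.998. Pnoc had 5, 0, 2, 4 and 2 counts in the oxycodone libraries and 0, 0, 2, 13 and 7 counts in the saline libraries, and it did not pass the filter on low counts. A count of 0 allows up to 3 counts, which is 0.172 CPM in oxycodone replicate 2, 0.266 CPM in saline replicate 1 and 0.264 CPM in saline replicate 2. These floors take counts as independent and would be higher if mates were counted singly, which is not given in the sources used here. Without the filter the log2 fold change of Pnoc was -0.36 with SE 1.45 and an adjusted p of 0.996, so a difference was not detectable at this depth.

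In ventral striatum 0 of the 4 precursors were called, as were 0 of all 14116 genes (0%). At an unadjusted p under 0.05 the edgeR fit had 1289 genes, and DESeq2 and limma-voom called 45 and 61 genes at an adjusted 0.05, none of the 4 precursors among them. Penk ran from 927 through a median of 1081 to 1826 CPM in oxycodone libraries and from 74.3 through 982 to 1365 CPM in saline libraries. Its highest oxycodone value and its lowest saline value both came from the sixth libraries. The log2 fold change was 0.39 with SE 0.45 and an adjusted p of 0.802, and without both sixth libraries it was -0.02 with SE 0.11 and an adjusted p of 0.98. Penk then averaged 1080 ± 117 CPM after oxycodone and 1094 ± 187 CPM after saline (SD, n = 5 each). In these bulk samples fewer cells of a type and less RNA per cell cannot be told apart.

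Pdyn showed the same dependence on the sixth libraries. It ran from 46.6 through 80.3 to 95.7 CPM in oxycodone and from 11.1 through 77.4 to 94.3 CPM in saline ventral libraries, the lowest value of each group being its sixth library. The log2 fold change was 0.15 with SE 0.36 and an adjusted p of 0.918, and 0.02 with SE 0.09 and an adjusted p of 0.97 without them. In lane 1, which holds neither sixth library, it was -0.07 for Penk and -0.04 for Pdyn, and in lane 2 1.55 and 0.74. For Pdyn the 5 remaining libraries of each group averaged 83.4 ± 7.49 CPM after oxycodone and 82.2 ± 11.1 CPM after saline.

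Pomc gave the largest ventral difference among the 4 and did not pass the correction. It measured 1.19 to 11.7 CPM with a median of 4.64 in oxycodone libraries and 1.62 to 3.57 CPM with a median of 2.41 in saline libraries. Of the 6 oxycodone libraries 5 lay above every saline library and 1, replicate 1, lay below every one. The log2 fold change was 1.02 (SE 0.41, unadjusted p = 0.026, adjusted p = 0.508), a fold of 2.03. Leaving out both sixth libraries gave 1.09 with SE 0.47 and an adjusted p of 0.464, with 4 of 5 oxycodone libraries above all saline ones. Within sequencing lane 1 it was 1.3 and within lane 2 it was 0.43. These are small counts, 12 to 103 per oxycodone library and 15 to 34 per saline library.

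Transcripts of the pituitary, where Pomc is abundant, and of blood cells were read beside Pomc in these libraries. The summed level of 11 pituitary genes, Pomc not among them, was 11.9, 55.1, 32.9, 26.8, 12.4 and 14 CPM in oxycodone replicates 1 to 6 of the ventral striatum, against 4.41, 2.66, 6.06, 6.37, 8.34 and 9.34 CPM in saline replicates 1 to 6. All 6 oxycodone sums exceeded all 6 saline sums, and the oxycodone library with the most Pomc, replicate 2, also had the highest sum, while the one with the least, replicate 1, had the lowest. Gh, which encodes growth hormone, made up most of each oxycodone sum, with 8.83 to 49.1 CPM in oxycodone and 1.06 to 7.08 CPM in saline libraries, and Prl, which encodes prolactin, had 1.3 to 4.44 CPM in oxycodone and 0.532 to 1.42 CPM in saline libraries. The means of other genes of the list, Tshb, Gnrhr, Pitx1 and Tbx19, ran the other way. Tshb averaged 0.643 CPM in oxycodone and 0.904 CPM in saline libraries, Gnrhr 0.093 and 0.105 CPM and Pitx1 0.074 and 0.0845 CPM. Between 3 and 5 of the 11 genes were at 0 counts in an oxycodone library and between 4 and 8 in a saline one, and Tbx19, a regulator that defines the pituitary cells making Pomc, was at 0 in all 6 oxycodone and 5 of 6 saline libraries. The sum of 12 hypothalamic genes was 13.5 to 84.7 CPM in oxycodone and 12.5 to 62.1 CPM in saline ventral libraries, groups that overlap. In dorsal striatum the pituitary sum was 3.44 to 24.3 CPM in oxycodone and 3.46 to 10.3 CPM in saline libraries. The summed level of 7 blood genes was 179, 452, 340, 841, 311 and 398 CPM in oxycodone replicates 1 to 6 and 310, 250, 278, 165, 233 and 735 CPM in saline replicates 1 to 6 of the ventral striatum. Without both sixth libraries 4 of 5 oxycodone sums lay above all saline ones, and replicate 1, the lowest in Pomc, did not. Over those 10 ventral libraries Pomc had r = 0.79 with the pituitary list mean, 0.73 with blood and -0.8 with septal, preoptic and pallidal markers. Over the 10 dorsal libraries these were 0.27, 0.21 and -0.36. The ventral values were those farthest from 0 among all lists compared. Next came -0.68 with striatal interneuron markers and 0.66 with D2 markers. Both treatments are pooled in these r values, which therefore also carry any difference between the treatment groups. The part of the pituitary, blood and other listed transcripts in the Pomc values was not tested.

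**Figure D2:**
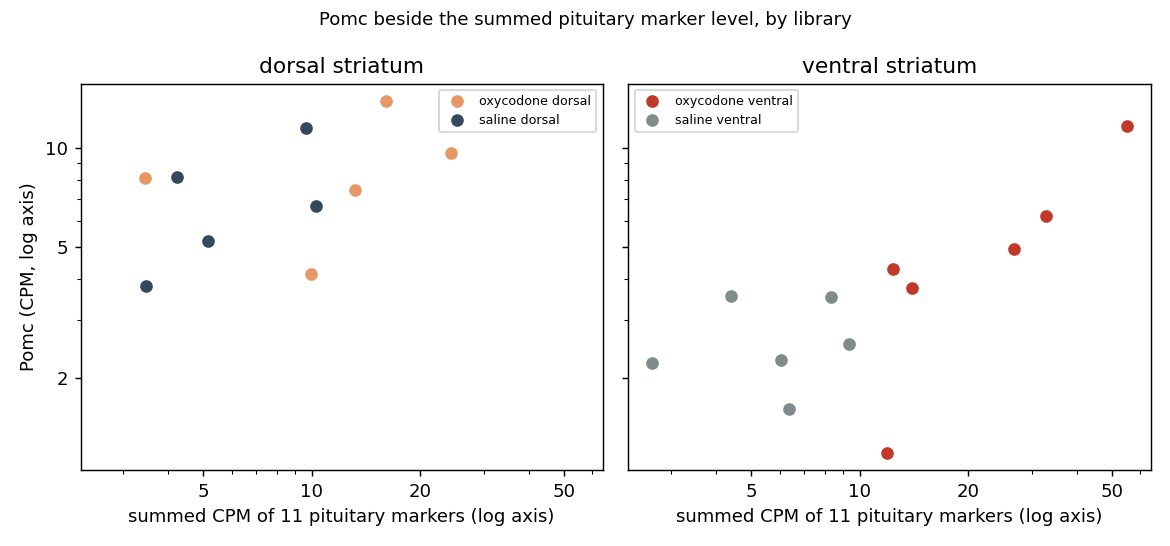
Pomc (CPM, log axis) against the summed CPM of 11 pituitary marker genes (log axis) in each dorsal and each ventral library. In ventral striatum the oxycodone library with the highest Pomc, 11.7 CPM, also has the highest marker sum, 55.1 CPM, and in dorsal striatum saline libraries reach 11.5 CPM of Pomc at sums of at most 10.3 CPM.

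Pnoc in ventral striatum did not pass the test. It measured 0.537 to 2.78 CPM with a median of 1.63 in oxycodone libraries and 1.7 to 3.56 CPM with a median of 2.6 in saline libraries, and 3 of 6 oxycodone libraries lay below all saline ones. The log2 fold change was -0.71 with SE 0.34, an unadjusted p of 0.0548 and an adjusted p of 0.555. Summed over libraries, 87 counts were read in oxycodone and 147 in saline ventral libraries, or 1.56 CPM with an exact 95% Poisson interval of 1.25 to 1.92 and 2.56 CPM with an interval of 2.16 to 3.01, which cover counting error only. With both sixth libraries left out the log2 fold change was -0.64 with SE 0.29 and an adjusted p of 0.475, and it was -0.41 within lane 1 and -1.66 within lane 2. Over the 10 other ventral libraries, with both treatments pooled, Pnoc had r = -0.9 with medium spiny neuron markers common to both pathways. With septal, preoptic and pallidal markers r was 0.77. These values were the farthest from 0 among all lists compared. The part of either marker list in the Pnoc values was not tested.

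Whether oxycodone acted differently on a precursor in dorsal and in ventral striatum was tested over all 22 libraries. The difference of the log2 fold changes, dorsal minus ventral, was -0.4 with SE 0.56 for Penk, -0.11 with SE 0.44 for Pdyn, -0.73 with SE 0.55 for Pomc and 0.23 with SE 1.07 for Pnoc. Adjusted p-values lay between 0.981 and 0.995, and 0 of 14938 genes were called (0%), with 674 at an unadjusted p under 0.05 and 0 called by DESeq2 or limma-voom. Leaving out both sixth libraries, the differences for Penk and Pdyn were -0.02 with SE 0.14 and -0.01 with SE 0.14, and those for Pomc and Pnoc -0.82 with SE 0.58 and 0.13 with SE 1.21.

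**Figure D3:**
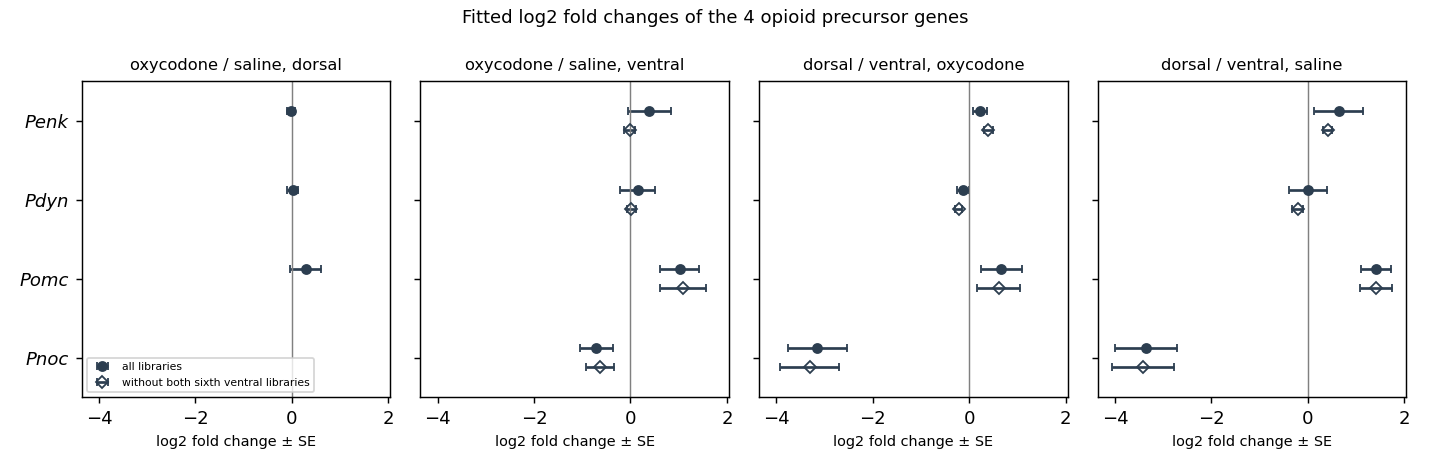
Fitted log2 fold changes ± SE of the 4 precursors for oxycodone over saline in dorsal and in ventral striatum and for dorsal over ventral striatum in oxycodone and in saline mice, with all libraries (circles) and without both sixth ventral libraries (diamonds). Penk and Pdyn sit at about 0 in both treatment panels once the sixth libraries are left out, Pnoc lies below -3 in both region panels, and dorsal Pnoc was not tested for treatment.

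Ratios within a library, which do not depend on the scaling factor, were compared between treatments. The log2 ratio of Penk to Pdyn averaged 4.3 ± 0.21 in oxycodone and 4.36 ± 0.27 in saline dorsal libraries (SD, n = 5 each), a difference of -0.06 (exact permutation test, two-sided, p = 0.722). In ventral striatum it averaged 3.96 ± 0.65 after oxycodone and 3.56 ± 0.42 after saline (n = 6 each), a difference of 0.4 (exact permutation p = 0.42) that became -0.04 without both sixth libraries (exact permutation p = 0.476). Penk over the mean of 6 measured D2 markers differed by 0.06 between oxycodone and saline dorsal libraries and by 0.05 between ventral ones, and Pdyn over the mean of 8 D1 markers by 0.1 and by -0.13 (exact permutation p between 0.5 and 0.799). After adjustment over the 6 ratios every p was 0.799. The marker means did not all follow the precursors. Penk had r = 0.23 with D2 and 0.67 with D1 markers over the 10 ventral libraries without both sixth ones. Over the 10 dorsal libraries these were 0.13 and 0.59. Pdyn had r = 0.5 with D1 markers in the ventral and -0.51 in the dorsal libraries. The ratios were therefore not read as levels per cell of a type.

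As plain folds, Penk exceeded Pdyn by 15.8 to 26.8 times with a median of 21.1 in the 10 dorsal libraries. In the 10 ventral libraries without both sixth ones the fold was 12.1 to 14.5 with a median of 13, so no dorsal library fell inside the ventral range. Oxycodone ventral replicate 6 had a fold of 39, above every other library, and saline ventral replicate 6 a fold of 6.6, below every other. Across the same 10 ventral libraries log2 Penk and log2 Pdyn were correlated (Pearson r = 0.94), with r = 0.94 in the 5 oxycodone and 0.95 in the 5 saline libraries taken alone. Across the 10 dorsal libraries r was -0.11. Libraries share scaling and tissue makeup between both genes. Cortical glutamatergic markers ran against both genes in the ventral libraries (r = -0.85 with Penk and -0.81 with Pdyn). Of all lists compared, the cortical one had the r farthest from 0 with each gene there. All these values are a description only.

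**Figure D4:**
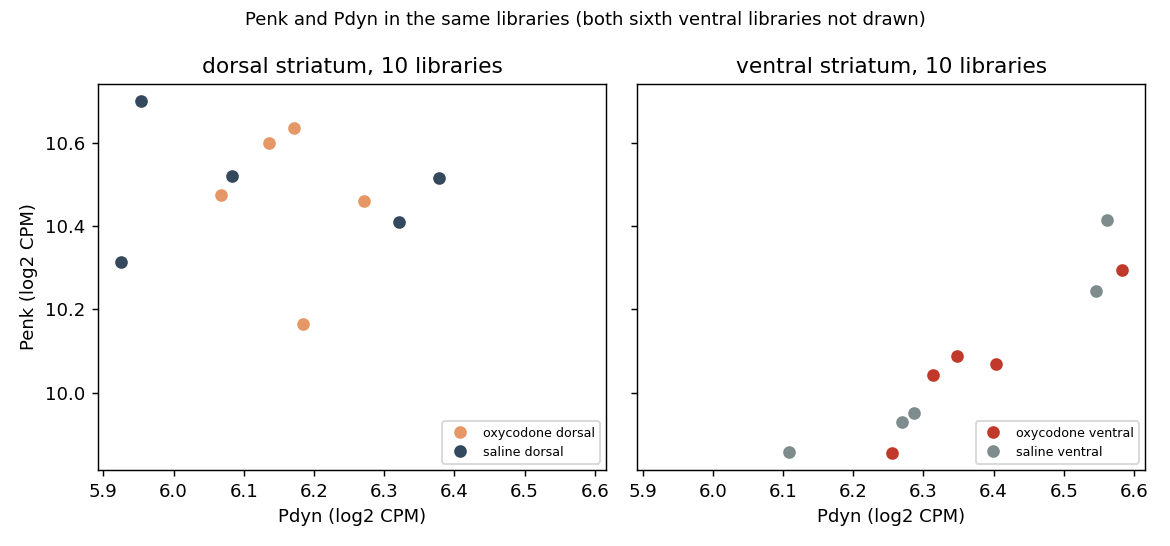
Penk against Pdyn (log2 CPM) in 10 dorsal and 10 ventral libraries, by treatment, without both sixth ventral libraries. The ventral points follow a line (r = 0.94) with both treatments spread along it, and the dorsal points form a cloud (r = -0.11), most of them at higher Penk.

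Dorsal and ventral striatum were then compared within each treatment. Region cannot be told apart from the sequencing set here, since the dorsal libraries are deeper and differ in their share of even counts. Of the 4 precursors 1 was called in oxycodone mice, where 47.2% of all 14375 genes tested were called, and 2 in saline mice, where 45.8% of 14433 were, so these counts are near or below the background. Pnoc had the log2 fold change farthest from 0 of the 4. In oxycodone mice its dorsal libraries measured 0.278, 0, 0.144, 0.287 and 0.143 CPM against 0.537 to 2.78 CPM in ventral libraries, and in saline mice 0, 0, 0.144, 0.593 and 0.327 CPM against 1.7 to 3.56 CPM. No dorsal library reached a ventral one of its treatment. The log2 fold change of dorsal over ventral was -3.15 with SE 0.61 and an adjusted p of 0.000522 in oxycodone mice, and -3.36 with SE 0.65 and an adjusted p of 0.000702 in saline mice. Without both sixth libraries it was -3.31 (SE 0.62, adjusted p = 0.000288) in oxycodone and -3.42 (SE 0.65, adjusted p = 0.000289) in saline mice. With dorsal counts halved it was -3.15 in saline mice (adjusted p = 0.000447), and Pnoc did not pass the count filter in oxycodone mice. Pooled, 13 dorsal counts in 76782599 stood against 87 ventral counts in 55846205 after oxycodone, and 22 in 80014222 against 147 in 57399072 after saline. Septal, preoptic and pallidal markers averaged 1.77 to 2.17 log2 CPM in dorsal and 2.68 to 3.57 in the 5 other ventral oxycodone libraries, and 1.72 to 2.4 in dorsal and 2.69 to 3.36 in the 5 other ventral saline libraries. Of these markers 0 of 8 tested were called higher and 5 lower in oxycodone mice without both sixth libraries, and 1 of 9 higher and 6 lower in saline mice. In the fits without both sixth libraries, medium spiny neuron markers common to both pathways were called higher in dorsal striatum for 8 of 10 in oxycodone mice. In saline mice it was 9 of 10. With all libraries these were 6 and 8 of 10. Of all genes, 47.5% in oxycodone and 50.7% in saline mice were called in either direction without both sixth libraries. The part of either marker list in the Pnoc difference was not tested.

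Pomc was higher in dorsal than in ventral striatum of saline mice. All 5 saline dorsal libraries, at 3.83 to 11.5 CPM, lay above all 6 saline ventral ones, at 1.62 to 3.57 CPM, with a log2 fold change of 1.42 (SE 0.31, adjusted p = 0.00193), a fold of 2.67, and of 1.42 (SE 0.33, adjusted p = 0.00167) without both sixth libraries. In oxycodone mice the values were 4.16 to 13.9 CPM in dorsal and 1.19 to 11.7 CPM in ventral libraries, and the log2 fold change of 0.67 (SE 0.42) had an adjusted p of 0.213, and 0.61 (SE 0.45, adjusted p = 0.293) without both sixth libraries. Over 25 alternatives it ranged from 0.44 to 1.08 with adjusted p from 0.0304 to 0.457, and 1 was called, the fit without oxycodone ventral replicate 2. That library has the highest ventral Pomc, so leaving it out raises the fold by construction. The pituitary sum did not separate the regions in saline mice, at 3.46 to 10.3 CPM in dorsal and 2.66 to 9.34 CPM in ventral libraries. The blood sum was 462 to 705 CPM in saline dorsal libraries and 165 to 310 CPM in the 5 other saline ventral ones, with 735 CPM in the sixth, and its part was not tested.

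Between the regions edgeR called Penk and Pdyn in neither treatment with all libraries, while limma-voom called Penk in oxycodone mice (log2 fold change 0.36, adjusted p = 0.0312). With all libraries Penk had a log2 fold change of dorsal over ventral of 0.22 (SE 0.15, adjusted p = 0.258) in oxycodone and 0.64 (SE 0.51, adjusted p = 0.332) in saline mice. In fits without both sixth libraries it was 0.4 (SE 0.09, adjusted p = 0.00219) with 4 of 5 dorsal libraries above all 5 ventral ones in oxycodone mice, and 0.41 (SE 0.1, adjusted p = 0.00169) with 3 of 5 above in saline mice. Pdyn had -0.13 (SE 0.13, adjusted p = 0.425) in oxycodone and 0 (SE 0.4, adjusted p = 0.999) in saline mice with all libraries. For Pdyn, leaving out both sixth libraries gave -0.22 (SE 0.08, adjusted p = 0.032) with 4 of 5 dorsal libraries below all ventral ones in oxycodone mice, and -0.21 (SE 0.11, adjusted p = 0.125) with 3 of 5 below in saline mice, the second of which did not pass. D2 neuron markers averaged 6.42 to 6.79 log2 CPM in dorsal and 5.96 to 6.41 in the 5 ventral oxycodone libraries, and 6.52 to 6.8 in dorsal and 5.86 to 6.24 in the 5 ventral saline libraries. Without both sixth libraries, 2 of the 6 D2 markers tested were called higher and 1 lower in dorsal striatum of oxycodone mice. In saline mice 3 were called higher and 2 lower. Of 8 D1 markers, 3 were called higher and 1 lower in oxycodone mice, and 4 higher and 1 lower in saline mice. In these fits 47.5% of all genes were called in oxycodone and 50.7% in saline mice. The part of D2 markers in the Penk values and of D1 markers in the Pdyn values was not tested.

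Of the 4 receptors of these peptides 0 were called for treatment in dorsal and 0 in ventral striatum. Oprd1, the delta receptor of the enkephalins, averaged 27.9 ± 2 CPM in oxycodone and 22.7 ± 3.52 CPM in saline dorsal libraries (SD, n = 5 each), a log2 fold change of 0.3 (SE 0.15) with an adjusted p of 0.9. Oprl1, the nociceptin receptor, averaged 26.3 ± 6 CPM in oxycodone and 33.7 ± 3.97 CPM in saline ventral libraries (SD, n = 6 each), a log2 fold change of -0.35 (SE 0.14) with an adjusted p of 0.508, and 4 of 6 oxycodone libraries lay below all saline ones. Oprk1, the kappa receptor of the dynorphins, had 0.4 (SE 0.36, adjusted p = 0.753) in ventral striatum, or 0.23 (SE 0.1, adjusted p = 0.459) without both sixth libraries, and 0.2 (SE 0.17, adjusted p = 0.998) in dorsal striatum. Oprm1, the mu receptor on which oxycodone acts, had 0.01 (SE 0.34, adjusted p = 0.996) in ventral and -0.3 (SE 0.19, adjusted p = 0.983) in dorsal striatum. Without both sixth libraries its ventral mean was 40.5 ± 6.99 CPM after oxycodone and 42.9 ± 5.67 CPM after saline (SD, n = 5 each). Exon bases of Oprm1 lie inside the spans, introns counted in, of Ipcef1 and Gm10945 on the opposite strand. Any reads of these genes there cannot be told from those of Oprm1 without the strand setting.

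Between the regions 2 receptors were higher and 1 lower in dorsal striatum of oxycodone mice, and 1 was higher and 2 lower in saline mice, or 3 of 4 in each, against 47.2% and 45.8% of all genes. In oxycodone mice Oprd1 averaged 27.9 ± 2 CPM in dorsal and 11.5 ± 3.89 CPM in ventral libraries, a log2 fold change of 1.25 (SE 0.17, adjusted p = 2.27e-05), and it rose by 1.31 (SE 0.25, adjusted p = 0.000534) in saline mice, with all 5 dorsal libraries above all 6 ventral ones in both. Oprm1 averaged 15.5 ± 2.76 CPM in dorsal and 36.9 ± 10.8 CPM in ventral oxycodone libraries, a log2 fold change of -1.28 (SE 0.2, adjusted p = 0.000119), and had -0.97 (SE 0.36, adjusted p = 0.0457) in saline mice, or -1.16 without both sixth libraries. Oprk1 was higher in dorsal striatum of oxycodone mice by 0.78 (SE 0.14, adjusted p = 0.000312) and had 0.98 (SE 0.42, adjusted p = 0.0753) in saline mice. Oprl1 had -0.12 (SE 0.15, adjusted p = 0.537) in oxycodone mice and fell by 0.56 on the log2 scale (SE 0.12, adjusted p = 0.00146) in saline mice. Its mean in the 5 other oxycodone ventral libraries was 28.2 ± 4.3 CPM (SD), and 2 of 5 oxycodone dorsal libraries lay below all of these. Without both sixth libraries 2 receptors were higher and 1 lower in oxycodone mice, and 2 higher and 2 lower in saline mice, where Oprk1 then had 0.76 (SE 0.18, adjusted p = 0.00155).

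Of the enzymes that cut and modify precursors 0 of 11 were called for treatment in dorsal and 0 of 11 in ventral striatum, with median log2 fold changes of 0 and -0.02 against -0.01 and 0 over all genes tested. Those with the lowest p in dorsal striatum were Pcsk1, prohormone convertase 1, at -0.34 (SE 0.19, adjusted p = 0.943), Cpe, the carboxypeptidase that trims the cut ends, at 0.08 (SE 0.06, adjusted p = 0.998), and Qpct at -0.19 (SE 0.15, adjusted p = 0.998). In ventral striatum they were Furin at -0.14 (SE 0.1, adjusted p = 0.673), Pam, which amidates peptides, at -0.19 (SE 0.15, adjusted p = 0.709), and Qpct at -0.23 (SE 0.21, adjusted p = 0.754). Without both sixth libraries these were -0.08, -0.03 and -0.38, with adjusted p of 0.804, 0.959 and 0.26. Between regions, 1 enzyme was higher and 2 lower in dorsal striatum of oxycodone mice, and 0 higher and 2 lower in saline mice, both below the 47.2% and 45.8% of all genes. Leaving out both sixth libraries, 1 was higher and 2 lower in each treatment. Pcsk2, prohormone convertase 2, was higher in dorsal striatum of oxycodone mice at 0.37 (SE 0.09, adjusted p = 0.00248), and had 0.34 (SE 0.19, adjusted p = 0.164) in saline mice, or 0.59 (adjusted p = 1.15e-06) without both sixth libraries. Pcsk5 was lower in dorsal striatum in both treatments, at -1.24 (SE 0.34, adjusted p = 0.00877) in oxycodone and -1.44 (SE 0.32, adjusted p = 0.00237) in saline mice.

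Peptidases that degrade opioid peptides gave 0 of 12 calls in each region for treatment. In ventral striatum 6 of 12 had a positive log2 fold change, with a median of -0.03 and a range from -0.81 to 0.81. In dorsal striatum 5 of 12 were positive, with a median of -0.05 and a range from -0.35 to 0.65. Mme, neprilysin, an enkephalin-degrading peptidase, averaged 46.8 ± 23.7 CPM in oxycodone and 27 ± 10.8 CPM in saline ventral libraries (SD, n = 6 each), a log2 fold change of 0.81 (SE 0.36, adjusted p = 0.533), which was 0.26 (SE 0.1, adjusted p = 0.367) without both sixth libraries. Enpep, an aminopeptidase, had 0.62 (SE 0.29, adjusted p = 0.85) in dorsal striatum, with 4 of 5 oxycodone libraries above all saline ones. Between regions 4 peptidases were higher and 2 lower in dorsal striatum in each treatment, 6 of 12, near the 47.2% of all genes called in oxycodone and 45.8% in saline mice. With both sixth libraries left out 4 were higher and 2 lower in oxycodone mice, and 5 higher and 3 lower in saline mice. Ace, angiotensin-converting enzyme, which also cleaves enkephalins, was higher in dorsal striatum of saline mice, at 107 ± 31.2 CPM against 25.7 ± 17.6 CPM in ventral (log2 fold change 2.05, SE 0.38, adjusted p = 0.00114). Choroid plexus and ependyma markers averaged 2.47 to 4.61 log2 CPM in saline dorsal libraries, against -0.55 to 1.37 in saline ventral ones, and their part in the Ace difference was not tested.

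Dense core vesicle genes, which pack and release such peptides, were lower in dorsal than in ventral striatum: 9 of 11 were called lower and 0 higher in oxycodone and in saline mice, with median log2 fold changes of -0.73 and -0.7, against -0.01 over all genes in both. Of all genes 23.7% were called lower in oxycodone and 22.3% in saline mice. Scg3, a granin that sorts cargo into these vesicles, fell by 0.88 on the log2 scale (SE 0.08, adjusted p = 1.37e-07) in oxycodone and by 0.95 (SE 0.08, adjusted p = 3.46e-07) in saline mice, and Syt4, a vesicle synaptotagmin, fell by 1.07 (SE 0.11, adjusted p = 1.1e-06) and by 0.95 (SE 0.08, adjusted p = 4.3e-07). With both sixth libraries left out 9 of 11 were lower in each treatment, with 0 higher in oxycodone and 1 higher in saline mice. For treatment 0 of 11 were called in either region. In dorsal striatum 0 of 11 had a positive log2 fold change, with a median of -0.06. In ventral striatum 3 of 11 were positive with a median of -0.11, or a median of -0.005 without both sixth libraries.

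Among transcription factors of activity and cAMP signalling 0 of 13 were called for treatment in either region. Penk and Pdyn are known to be induced through such factors, but the list also holds a repressor. A positive log2 fold change in it is thus not in each case a rise of an inducer. In ventral striatum 12 of 13 had a positive log2 fold change, with a median of 0.16, led by Fosl2 at 0.48 (SE 0.2, adjusted p = 0.514). In dorsal striatum 9 of 13 were positive with a median of 0.12 and a highest value of 0.3. The median over all genes tested was -0.003 in ventral and -0.008 in dorsal striatum. The share of positive genes over all genes was not computed. Nr4a1, among the 3 with the lowest p, was at 0.26 (SE 0.14, adjusted p = 0.913). Between regions 2 were called higher and 8 lower in dorsal striatum of oxycodone and of saline mice, with medians of -0.5 and -0.48, against 47.2% and 45.8% of all genes called in either direction. Fits without both sixth libraries gave 3 higher and 8 lower in oxycodone mice and 2 higher and 6 lower in saline mice, with medians of -0.42 and -0.33. Kcnip3, which encodes DREAM, a repressor of Pdyn transcription, was higher in dorsal striatum by 1.02 (SE 0.1, adjusted p = 5.96e-07) in oxycodone and by 1.22 (SE 0.1, adjusted p = 4.11e-07) in saline mice.

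Genes with the most similar pattern to each precursor were ranked over 10 dorsal and 10 ventral libraries, by the lower of the 2 Pearson correlations, among 13336 named genes (for Penk, Pdyn and Pomc) at 1 CPM or more in both regions. For Penk these were Gnal (r = 0.81 ventral and 0.9 dorsal), the G protein subunit that couples striatal dopamine and adenosine receptors to adenylyl cyclase, then Ric8b (0.79 and 0.78), a chaperone of that subunit, and Glce (0.77 and 0.81). For Pdyn they were Dtnb (0.76 and 0.79), Rgs12 (0.75 and 0.71) and Zfp563 (0.71 and 0.75). For Pomc they were Tbc1d8 (0.77 and 0.71), Gas7 (0.69 and 0.68) and Camk2b (0.69 and 0.66). Pnoc, too rare in dorsal striatum, was ranked on the ventral libraries alone, where Magi1 (0.96), Hmgn3 (0.95) and Cdh23 (0.94) came first, among 13653 genes, and its dorsal r was -0.47 with Magi1, -0.71 with Hmgn3 and 0.13 with Cdh23. The points share libraries and scaling and pool both treatments, and the ranking takes the highest of many correlations, so these are descriptions.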

How the data were processed

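Striatal RNA from 22 mouse libraries was measured with a stranded kit that removes ribosomal RNA, per the labels' protocols. The deposited table holds raw counts per gene made by the authors, and the submitters' processing notes name CASAVA 1.8.2, STAR 2.3 and featureCounts, with the builds mm10, GRCm38 and mm9 in no stated role. The strand setting, the treatment of reads that map to several places and whether mates were counted singly are not given in the sources used here, which limits overlapping genes and low counts. Symbols and positions come from GENCODE M21 on GRCm38, for 22205 of 23119 identifiers. No column was left without a sample.

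Each comparison was fitted with the edgeR 4.0.16 quasi-likelihood test (robust, TMM factors, filterByExpr, R 4.3.3), with two-sided p-values, Benjamini-Hochberg adjustment across every gene in the fit and a threshold of 0.05. Levels are CPM on TMM factors over all libraries, and log2 CPM uses a prior count of 2. Scripts were tested on simulated data. Alternatives were DESeq2 1.42.0, limma-voom (limma 3.58.1), other scaling, other filters, lane, title suffix, summed title-number pairs, blocks and left-out libraries, and, added after the data had been seen, halved dorsal counts. Intervals and floors cover counting error alone. Same-group libraries, set against each other in pairs, had a chi-square per degree of freedom of at least 2.88, and each was kept.

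The members and all gene lists were chosen with earlier results of these data known. Named genes are the 4 members, the 4 receptors, up to 3 genes of each list with the lowest p in a comparison, of which a subset is printed, and the 3 genes most similar to each member. Ace is among them for saline mice, and Mme and Enpep for treatment. Gh, Prl, Tbx19, Tshb, Gnrhr and Pitx1 are named as members of the pituitary list, all but Gh and Prl after their values were seen.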

Additional observations from a re-analysis of the deposited data

Results flagged for a closer look

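In groups of 5 or 6 libraries the highest and the lowest value of each precursor and of each within-library ratio were compared with the nearest neighbour by Dixon's criterion, over 28 groups of values. Chance sets about 1 in 20 such groups apart, and 6 values were found. The groups are not independent, since the ratios reuse the Penk and Pdyn values, so the 6 cannot be read against that rate. All 6 come from the sixth ventral libraries. Penk stood at 1826 CPM in oxycodone ventral replicate 6, far above the other 5, and at 74.3 CPM in saline ventral replicate 6, far below the other 5. Pdyn stood at 11.1 CPM in saline ventral replicate 6, below the rest of its group. The log2 ratio of Penk to Pdyn was 5.29 in oxycodone ventral replicate 6, the highest of its group, and 2.72 in saline ventral replicate 6, the lowest. The log2 ratio of Pdyn to D1 markers was -0.0743 in oxycodone ventral replicate 6, the lowest of its group. The marker levels that set both libraries apart are given with the depths above, and their part in these values was not tested.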

How the results depend on the processing

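Over 506 refits of the 19 precursor results, 460 kept direction and side of the threshold, 14 passed where the full fit did not and 32 changed sign, and none of the 312 refits of a treatment effect or its regional difference was called (lowest adjusted p 0.117). The 14 that passed were Penk and Pdyn between regions, together with Pomc in oxycodone mice without oxycodone ventral replicate 2. Pnoc and, in saline mice, Pomc were called between regions in every refit that tested them, with Pnoc at -3.48 to -2.8 in oxycodone and -4.1 to -3.1 in saline mice and Pomc at 1.12 to 1.58. Leaving out both sixth libraries, Penk was -0.02 for treatment in ventral striatum, and 0.4 in oxycodone and 0.41 in saline mice between regions, and Pdyn -0.22 in oxycodone mice. Penk by limma-voom was 0.36 (adjusted p = 0.0312) between regions in oxycodone mice. In lane 1 alone the ventral treatment effect was -0.07 for Penk and -0.04 for Pdyn, and in dorsal striatum Pdyn was -0.01 by limma-voom and -0.02 with pairs summed. Pdyn between regions in saline mice was 0.01 with upper quartile factors, 0 with a filter at 1 CPM, 0.01 with all libraries in 1 fit and 0.04 with pairs summed.

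Whether a title number marks the same mouse in both regions is not given in the sources used here. Same-numbered libraries correlated at -0.076 to 0.309 over 10 pairs, not all over 0.1, so the fits treat libraries as unpaired, which does not show that they come from different mice. With the replicate block by title number, Penk between regions was 0.37 (adjusted p = 0.00773) in oxycodone and 0.35 (0.0158) in saline mice, Pdyn -0.25 (0.0343) in oxycodone mice, and the regional difference of the Penk effect 0.03. The block fit uses no sixth library, and the same libraries without the block gave 0.38 and 0.36 for Penk, -0.24 for Pdyn, and differences of 0.02 for Penk, 0.01 for Pdyn and -0.1 for Pnoc.

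Leaving out 1 library at a time, treatment effects ranged from -0.06 to 0.05 for Penk and -0.03 to 0.09 for Pdyn in dorsal, and from 0.15 to 0.53 for Penk and -0.08 to 0.25 for Pdyn in ventral striatum. The regional difference ranged from -0.23 to 0.11 for Pdyn and from -0.06 to 0.98 for Pnoc. Between regions in oxycodone mice Penk ranged from 0.15 to 0.4, Pdyn from -0.22 to -0.04 and Pomc from 0.44 to 1.08, and in saline mice Penk from 0.41 to 0.78 and Pdyn from -0.21 to 0.11. Of the ratios, Penk to Pdyn ranged from -0.13 to 0.04 in dorsal, Penk to D2 markers from -0.03 to 0.13 in dorsal and -0.08 to 0.13 in ventral, and Pdyn to D1 markers from -0.2 to 0.06 in ventral striatum. Of 90 refits of the 6 ratios 12 changed sign and 0 passed. With both sixth libraries left out the ventral ratios were -0.04 (Penk to Pdyn), -0.11 (Penk to D2 markers) and 0.05 (Pdyn to D1 markers), in lane 1 Penk to Pdyn was -0.02 and Penk to D2 markers -0.15, with pairs summed dorsal Penk to Pdyn was 0, and with suffix P alone dorsal Penk to D2 markers was -0.02. The cause of these changes was not tested beyond the libraries each setting drops.

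Counts of called genes moved by over 1.5 times for treatment: in ventral striatum 0 by edgeR against 45 by DESeq2 and 61 by limma-voom, and in dorsal striatum 30 against 88 by DESeq2, 58 without robust estimation, 5 with all libraries in 1 fit, 17 without suffix P, 1 with suffix P alone and 1 to 63 leaving out 1 library. Depth limits Pnoc most, with 13 and 22 dorsal counts in all.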
